A study of Arabidopsis thaliana with 111 samples.

Results

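The 150 genes described here were low at 12 h after sowing, and high both at 1 h and at the end of germination, in 2 parts of the seed. They were chosen from 21313 measured loci of Arabidopsis thaliana by their measured levels. For the endosperm of the micropylar and chalazal ends (MCE), the lower of the mean log2 levels at 1 h and at 38 h with a ruptured endosperm was taken, and the mean at 12 h was subtracted. The same was done for the radicle with the embryonic axis (RAD), and the lower of the 2 differences was the score. The 150 loci with the highest scores were kept. The arrays at 1 h, at 12 h and at 38 h with a ruptured endosperm therefore chose these genes, and their values are given below as a description only.

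Seeds were of the accession Columbia-0 (Col-0, N60000) and all were sown on 0.7% water agarose at 22 °C in continuous light, with no other treatment and no mutant. MCE and RAD were dissected at 11 stages: at 1, 3, 7, 12, 16 and 20 h, at 25 h from seeds without and with a ruptured testa (the seed coat), at 31 h, and at 38 h from seeds without and with a ruptured endosperm. The rest of the endosperm (PE) was taken at 3 and 16 h and the cotyledons (COT) at 3, 16 and 31 h, beside whole dry seeds. There were 28 groups with 4 arrays each, but PE had 3 at 3 h. MCE pools both ends of the endosperm, and seeds before and after a rupture were separate populations. PE was not sampled after 16 h, and no part other than MCE and RAD was sampled at 12 or 38 h.

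A dry seed holds stored messenger RNA, and much of it is degraded in the hours after water uptake while new transcripts are made. The endosperm of Arabidopsis is a living cell layer around the embryo that weakens before the radicle breaks through. Oil and protein reserves feed the embryo until photosynthesis begins, and genes of sugar starvation, autophagy, stress protection and light capture all belong to the known programmes of seeds and young seedlings.

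Array medians over all loci lay between 4.67 and 5.22 on the log2 scale. The endosperm gene EXPA2 averaged 13.5 in MCE at 12 h and at most 5.20 in RAD, and the root gene PIN2 averaged 9.12 in RAD at 12 h and at most 5.26 in MCE. FIL, a gene of leaf-like organs, averaged 10.4 in COT at 16 h. Of the 4 seed coat genes measured, TT10 and BAN averaged at most 3.87 in MCE and RAD, and TT12 between 4.70 and 5.13. The fourth, MUM4, averaged 5.6 in MCE at 1 h and 7.40 at 31 h, and 5.71 in RAD at 1 h and 8.35 at 38 h with an intact endosperm. Some markers crossed the parts: the endosperm gene EPR1 averaged 7.78 in RAD at 1 h and 3.53 at 38 h with a ruptured endosperm, and FIL averaged 4.27 in MCE at 1 h and 6.84 there at 38 h with an intact endosperm. SMB, a gene of the root cap, averaged 3.19 in MCE at 1 h and 6.95 at 31 h, above the 5.67 of RAD at 31 h. MAN7, also an endosperm gene, averaged 11.65 in MCE and 7.59 in RAD at 25 h with an intact testa. At 38 h with a ruptured endosperm MAN7 averaged 5.36 in MCE, below the 6.44 of RAD. The part of RNA from neighbouring tissue in the results below was not tested. In arrays of dissected tissue, fewer cells of a type and less RNA per cell cannot be told apart, and levels are relative to all RNA of a sample.

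The scores ran from 3.99 for SEN1, a gene known for its induction by darkness and senescence, down to 1.04, with a median of 1.34. The last loci inside were AT2G23450 with 1.05 and AT3G07890 and AT4G25660 with 1.04 each. The first outside were TRX5, AT1G74470 and AT3G52360, each with 1.04, so the edge falls within a continuum. A score above 0 was found for 2727 loci, or 12.8% of all. After SEN1 came ECT8 (3.82), which encodes a reader of methylated adenine in RNA, and ABCI21 (3.70), of the ATP-binding cassette family. GALS1 (3.24) makes galactan side chains of pectin. AT3G27770 scored 3.18, AT3G57010 scored 2.83 and AT4G33660 scored 2.6, and none of these loci has a symbol in the reference table. SQE3 (2.6) encodes a squalene epoxidase of sterol synthesis, PYD1 (2.52) starts the breakdown of uracil, AT5G11970 scored 2.44, RCI2A (2.40) encodes a small membrane protein induced by cold and salt, and GSTU9 (2.31) encodes a glutathione transferase.

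SEN1 shows the pattern. In MCE its levels were 8.48, 8.37, 8.66 and 8.68 at 1 h, 4.04, 4.95, 4.58 and 4.67 at 12 h, and 10.08, 10.03, 10.03 and 9.64 at 38 h with a ruptured endosperm. In RAD they were 8.91, 8.73, 9.0 and 8.69 at 1 h, 3.16, 4.15, 4.01 and 3.66 at 12 h, and 10.22, 10.23, 9.86 and 10.16 at the last stage. All arrays at 12 h lay below all at 1 h and all at the last stage in both parts. The choice requires this order of the group means, not of single arrays. In dry seed SEN1 stood at 9.80, 9.78, 9.83 and 9.65.

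The depth of the dip was a median log2 difference of 1.9 on the way down and 2.17 on the way up in MCE, and of 2.25 and 2.03 in RAD. The smallest of these differences, which set the score, was the fall in MCE for 43 genes, the return in MCE for 36, the fall in RAD for 24 and the return in RAD for 47. The lowest stage mean was at 12 h for 62 genes in MCE and 51 in RAD, at 16 h for 57 and 50, at 20 h for 14 and 19, at 7 h for 11 and 14, and at 25 h for the others. At the last stage 82 genes averaged above their 1 h level in MCE and 66 in RAD. The genes were well expressed at the start, as a choice by falls in part requires: 149 of 150 averaged above the median locus of dry seed, which was 4.70. At 12 h, 16 genes in MCE and 30 in RAD averaged below 4.03, the lower quartile of the loci's highest group means, near the low end of the scale.

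**Figure D1:**
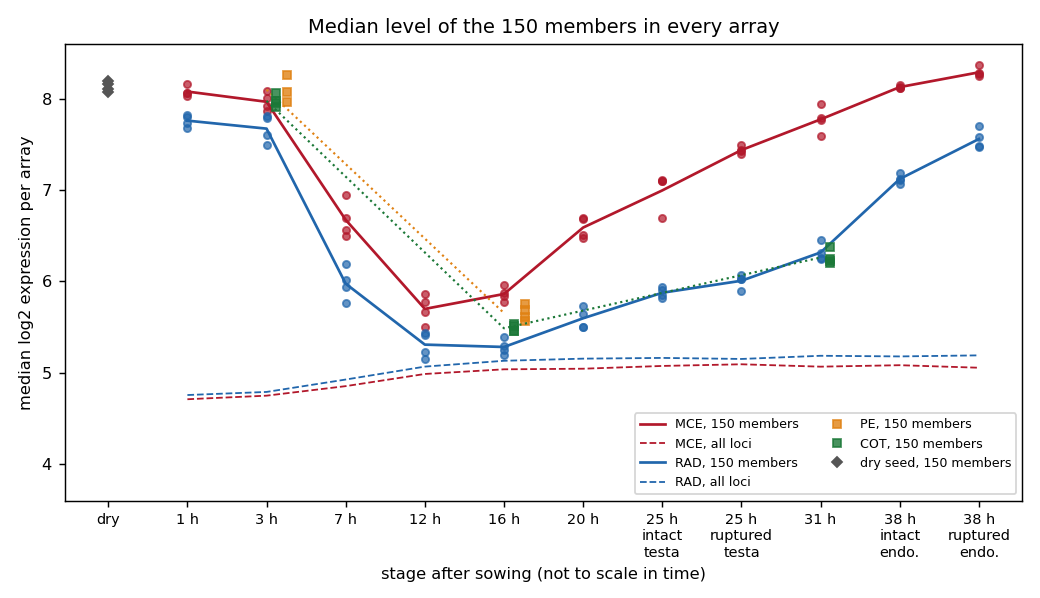
The median log2 level of the 150 genes in each array (y axis) against stage (x axis, not to scale in time). Points are single arrays, lines join group means, and dashed lines give the median of all loci. The medians are highest in dry seed and at the ends of the series, and RAD climbs later than MCE.

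The median level of the 150 genes in an array averaged 8.13 ± 0.05 (SD, n = 4) in dry seed. In MCE it was 7.97 ± 0.10 (SD, n = 4) at 3 h, 5.86 ± 0.08 at 16 h, 6.59 ± 0.12 at 20 h and 7.77 ± 0.14 at 31 h. The RAD median was 7.67 ± 0.15 at 3 h, 5.28 ± 0.08 at 16 h, 5.6 ± 0.11 at 20 h and 6.32 ± 0.10 at 31 h. The arrays of these stages did not choose the genes, but they lie next to the stages that did, so a low level at 16 h in MCE and RAD is in part what the choice asks for. PE and COT played no role in the choice. Their medians were 8.10 ± 0.15 (SD, n = 3) and 7.98 ± 0.06 (n = 4) at 3 h, 5.65 ± 0.08 and 5.49 ± 0.04 at 16 h, and 6.26 ± 0.08 in COT at 31 h.

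**Figure D2:**
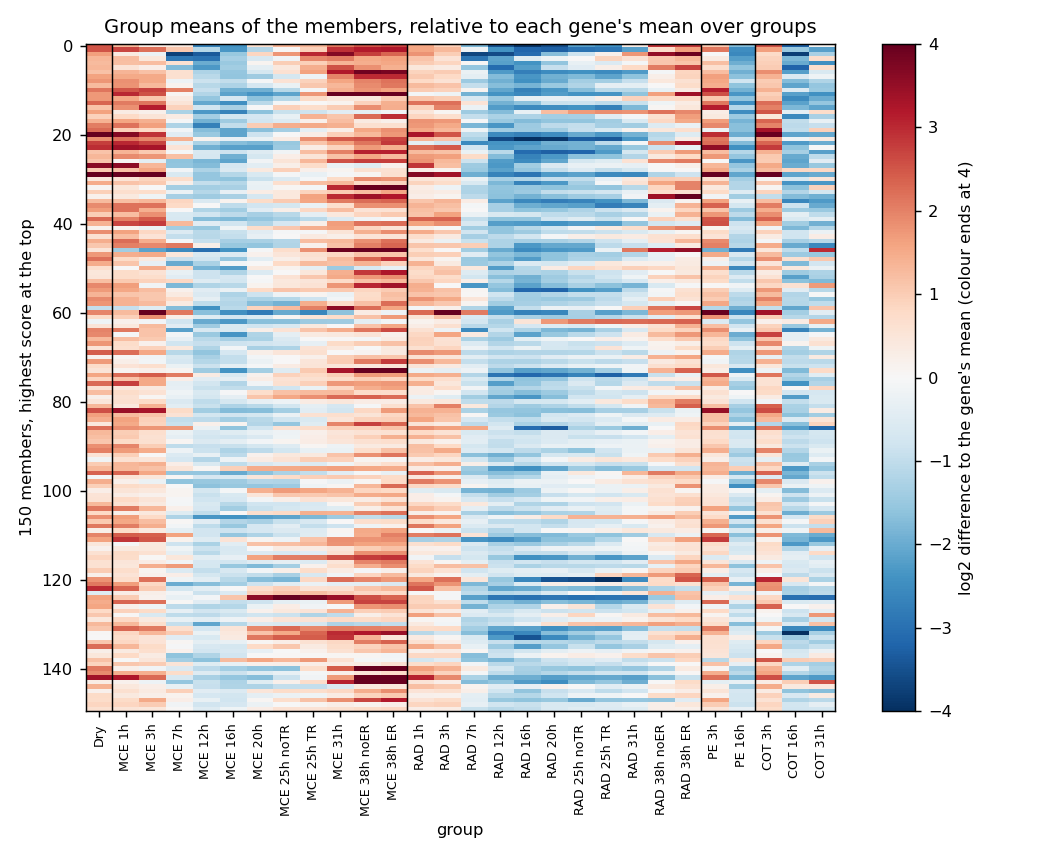
Group means of the 150 genes (lines, highest score at the top) in the 28 groups (columns). Colour gives the log2 difference of a group mean to the gene's mean over the groups, with red for higher and blue for lower. Blue columns appear at 12 and 16 h in MCE and RAD and at 16 h in PE and COT, and the red columns of late MCE have no counterpart of equal strength in COT at 31 h.

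Tests used limma across all 21313 loci, on 16 comparisons that contain none of the 24 arrays of the choice. Calls required a log2 difference of at least 1 in either direction and an adjusted p (Benjamini-Hochberg, over all loci of a comparison) under 0.05. Comparisons of 16 h with 3 h and of 31 h with 16 h share the arrays at 16 h, so their results are not independent of each other.

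From 3 to 16 h, 123 of the 150 genes fell in PE (82.0%, against 13.1% of all loci called lower) and 126 fell in COT (84.0%, against 13.1%). In MCE 120 fell (80.0%, against 13.7%) and in RAD 133 (88.7%, against 13.8%). The median log2 difference of the 150 genes was -1.97 in PE, -2.12 in COT, -1.77 in MCE and -2.28 in RAD, where the medians of all loci lay between -0.12 and -0.05. In these comparisons, which share no arrays with each other, 95 genes fell in all 4 parts (63.3%, against 8.50% of all loci). No gene was called higher in MCE or RAD (0 of 150, against 15.8% and 18.2% of all loci), where 2 and 0 genes had an unadjusted p under 0.05 in limma. The fall was not particular to these genes: of 1757 other loci that fell from 1 h to 12 h in both MCE and RAD by at least 1.04, 91.9% were called lower in PE and 88.9% in COT.

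SIS, a gene named for its induction by salt, had the largest fall with a gene symbol in both PE and COT. In PE it stood at 10.81, 11.55 and 11.65 at 3 h and at 4.93, 4.83, 5.37 and 5.91 at 16 h. In COT it stood at 11.49, 11.83, 11.82 and 11.66 at 3 h and at 5.25, 5.04, 5.24 and 5.42 at 16 h. The groups did not overlap, and limma gave log2 differences of -6.08 (SE 0.23, adjusted p = 3.4e-43) in PE and -6.46 (SE 0.21, adjusted p = 8.8e-48) in COT. RVE2, a MYB-like transcription factor of the family of clock genes, fell from 8.89, 9.19 and 9.20 to 2.89, 3.02, 3.56 and 3.03 in PE, with all arrays at 16 h far below those at 3 h. ATG8H, a ubiquitin-like protein that coats the autophagosome, fell in COT from 10.07, 10.80, 10.42 and 10.18 to 4.26, 4.09, 4.40 and 4.35. Its log2 difference was -6.09 in COT, -4.92 in PE, -5.01 in MCE and -5.21 in RAD.

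The only gene called higher at 16 h than at 3 h in PE was JAZ10, a repressor of jasmonate responses (1 gene, 0.667%, against 16.5% of all loci). Its levels there were 3.81, 4.62 and 4.33 at 3 h and 6.15, 6.41, 5.54 and 5.07 at 16 h, without overlap (limma log2 difference 1.54, SE 0.26, adjusted p = 2.0e-07). In COT JAZ10 fell by 1.47 on the log2 scale. No gene was called higher in COT (0 of 150, against 17.8% of all loci), where limma gave 1 gene an unadjusted p under 0.05 in that direction: PSBP-1, a subunit of photosystem II, with a log2 difference of 0.68 that missed the fold minimum.

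The later rise was called for different numbers of genes in the 3 parts. Between 16 and 31 h, 116 of the 150 genes rose in MCE (77.3%, against 10.6% of all loci), 62 rose in RAD (41.3%, against 7.16%) and 41 rose in COT (27.3%, against 6.99%). The median log2 differences were 1.57, 0.93 and 0.45. Both MCE and RAD rose for 54 genes (36.0%, against 3.30% of all loci). None was called lower in MCE (against 11.7% of all loci) or RAD (against 4.34%), where 1 and 2 genes had an unadjusted p under 0.05 in limma, and 2 genes fell in COT (1.33%, against 4.23%): AT1G05060 and UGT74E2, a glucosyltransferase of the auxin precursor indole-3-butyric acid. Of the other loci that fell as much by 12 h, 12.1% rose in MCE over this time, 3.36% in RAD and 1.37% in COT, while 21.5% fell further in COT. Those loci missed the choice because their return by 38 h was below 1.04 in MCE or RAD. Their lower shares of later rises in MCE and RAD are therefore in part set by how they were picked. MCE and RAD at 38 h took part in the choice of the genes, but COT did not. More rises than falls in MCE and RAD are thus in part what the choice asks for.

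**Figure D3:**
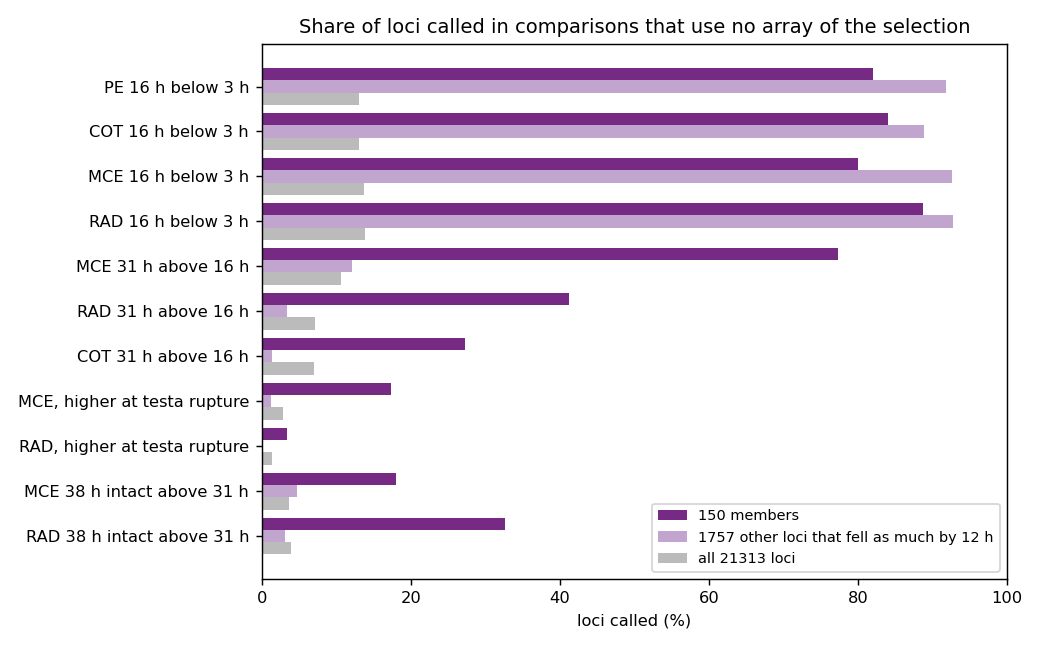
The share of loci called (x axis, percent) in 11 comparisons without arrays of the choice, for the 150 genes, the 1757 other loci that fell as much by 12 h, and all 21313 loci. The bars of the fall are of like length in the first 2 sets, and those of the later rise are longer in the 150 genes. The other loci were left out of the 150 for a smaller return in MCE or RAD, so the latter difference is in part set by the choice.

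The difference between the parts was tested as an interaction. For 31 h minus 16 h, 58 genes rose more in MCE than in RAD (38.7%, against 8.88% of all loci) and 4 rose more in RAD (2.67%, against 10.2%), with a median difference of 0.61. In COT the change was below that in RAD for 31 genes (20.7%, against 4.33%). It was above that in RAD for 9 (6.0%, against 4.53%), which is near the background. The fall also differed: from 3 to 16 h the change in MCE was above that in RAD for 37 genes (24.7%, against 6.81%). The change in MCE was below that in RAD for 13 (8.67%, against 6.99%), near the background.

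**Figure D4:**
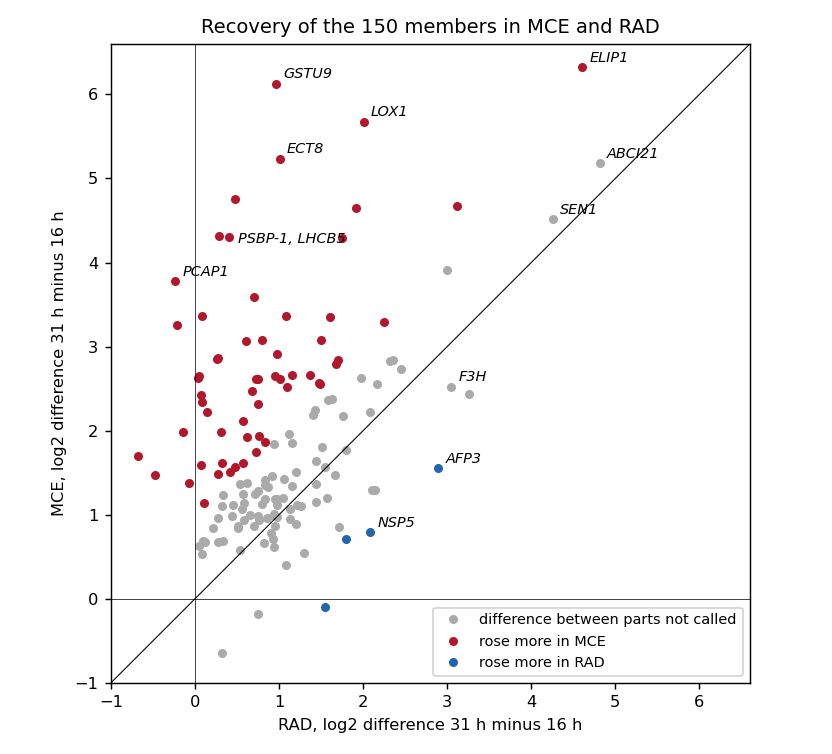
The log2 difference of 31 h minus 16 h in MCE (y axis) against RAD (x axis) for each of the 150 genes, with the line of equality. Red points rose more in MCE and blue points more in RAD by the interaction test. GSTU9, LOX1, ECT8, PCAP1, PSBP-1 and LHCB5 stand far above the line, and AFP3 and NSP5 below it.

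Genes named for roles were sorted into 9 groups after their values had been seen, so the counts below describe them and test nothing about a role. The role groups are part of the chosen genes, so the background of their counts is the share of all chosen genes called. From 3 to 16 h this share was 82% lower in PE, 84% in COT, 80% in MCE and 88.7% in RAD. From 16 to 31 h it was 77.3% higher in MCE, 41.3% in RAD and 27.3% in COT. Group counts near these shares show nothing particular to a role. The shares of all loci given above are the background of the wider gene lists. With so few genes a count of 0 or 1 in these lists is near it. The group of starvation, autophagy and reuse of reserves held 9 genes. SEN1 and TPS10 (a protein of the trehalose-phosphate synthase family) belong to sugar starvation, ATG8H, ATG8E and G18F to autophagy, STP4 carries hexoses, PYD1 and NCS1 handle uracil and other bases, and ACX1 oxidises fatty acids in the peroxisome. Between 3 and 16 h, 8 of the 9 fell in PE, 7 in COT, 7 in MCE and 8 in RAD. All 9 rose in MCE from 16 to 31 h (between 1.18 and 4.51 on the log2 scale), but 3 rose in RAD and 2 in COT.

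SEN1 and STP4 rose between 16 and 31 h in each of the 3 parts sampled then. SEN1 went from 5.09, 5.48, 4.27 and 4.48 to 9.39, 9.69, 9.37 and 8.93 in MCE. It went from 3.24, 3.10, 3.6 and 3.32 to 7.30, 8.22, 7.62 and 7.13 in RAD, and from 3.91, 3.90, 4.01 and 4.09 to 7.49, 7.63, 7.30 and 7.08 in COT. No arrays of 16 and 31 h overlapped within a part, and the log2 differences were 4.51 (SE 0.22), 4.25 (SE 0.22) and 3.40 (SE 0.22). STP4 differed by 2.55, 2.17 and 2.90 on the same scale.

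ATG8H, ATG8E and G18F were each called higher in MCE and not in RAD or COT. ATG8H went from 4.51, 4.09, 4.03 and 4.52 at 16 h to 7.30, 7.39, 7.33 and 7.43 at 31 h in MCE (log2 difference 3.08, SE 0.23, limma adjusted p = 7.6e-22). In COT it stayed among 4.26, 4.09, 4.40 and 4.35 at 16 h and 4.73, 3.99, 4.40 and 4.25 at 31 h, which overlap (log2 difference 0.06, SE 0.23, adjusted p = 0.88). In RAD it was 3.87, 3.55, 3.74 and 3.65 against 4.78, 4.61, 4.37 and 4.25, a log2 difference of 0.80 that missed the fold minimum although the groups did not overlap. The rise of ATG8H was larger in MCE than in RAD by 2.28 (SE 0.33, adjusted p = 5.3e-09). ATG8E differed by 2.86 in MCE, 0.26 in RAD and -0.44 in COT. Of the 16 autophagy genes listed and measured, these 2 among them, 6 were called higher in MCE from 16 to 31 h (against 10.6% of all loci). In RAD 0 were called higher and 2 lower, where 7.16% and 4.34% of all loci were, and in COT 0 higher and 1 lower, where 6.99% and 4.23% of all loci were, so these small counts do not stand apart from the background. By the interaction, the change in MCE was above that in RAD for 10 of the 16 (against 8.88% of all loci). Over 3 to 16 h, 9 of the 16 fell in PE, 10 in COT, 10 in MCE and 12 in RAD.

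**Figure D5:**
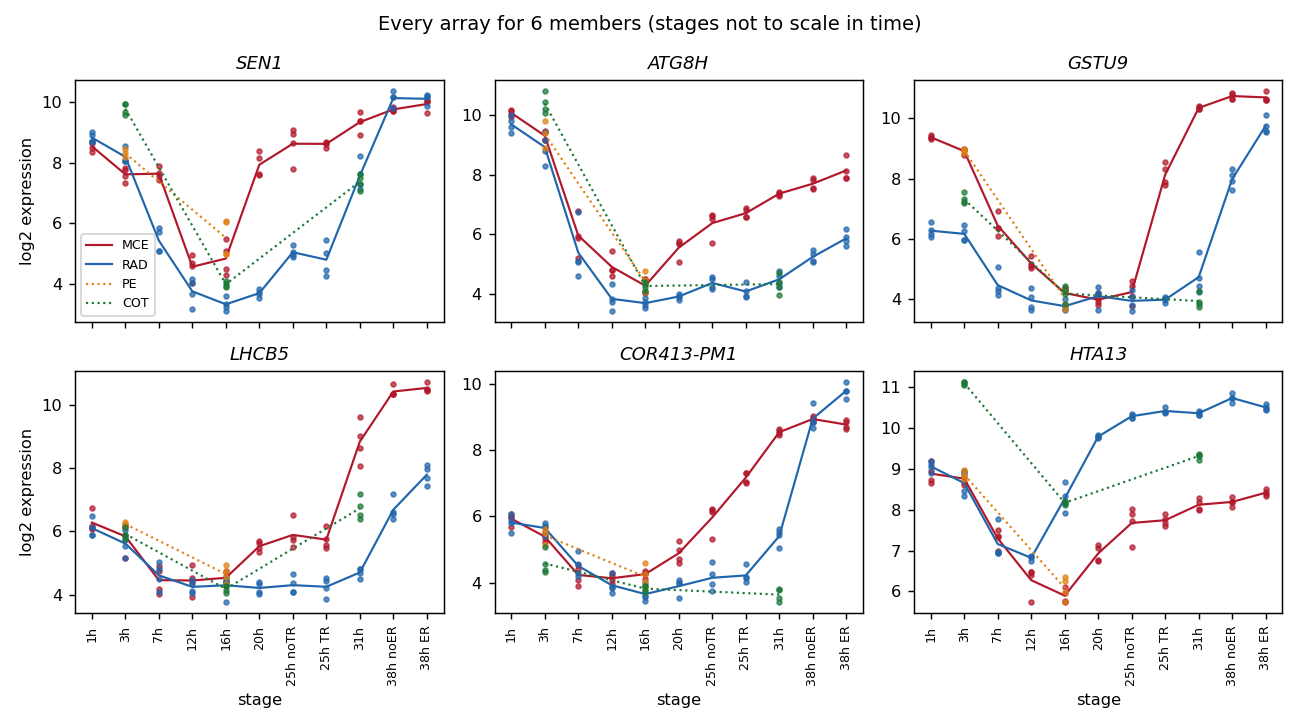
The log2 level in every array (points) and the group means (lines) of 6 of the genes against stage, not to scale in time, in MCE, RAD, PE and COT. ATG8H, COR413-PM1 and GSTU9 are low in COT at 31 h while LHCB5, SEN1 and HTA13 are above their 16 h levels there.

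The dehydration, cold and abscisic acid group held 10 genes. RCI2A, ERD7, COR27 and COR413-PM1 are known from cold or drought responses, HAB1 and AFP3 are negative regulators of abscisic acid signalling, ADH1 encodes alcohol dehydrogenase, and RAP2.6 and ZF2 are stress-related transcription factors, and SIS completes the group. From 3 to 16 h, 9 of the 10 fell in PE, 9 in COT, 9 in MCE and all 10 in RAD. From 16 to 31 h, 9 rose in MCE, 4 in RAD and none in COT, where the log2 differences ran from -0.92 to 0.98. All 13 genes listed for late embryogenesis abundant proteins, the classic protectants of dry seeds, were measured and none was among the 150. With 150 of 21313 loci chosen, this absence is near the background. Of the 13, 12 fell from 3 to 16 h in MCE, and 11 fell further from 16 to 31 h.

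COR413-PM1, a cold-regulated membrane protein, followed different timetables in the 3 parts. In MCE it went from 4.31, 4.11, 4.35 and 4.27 at 16 h to 8.51, 8.58, 8.46 and 8.63 at 31 h (log2 difference 4.29, SE 0.17, limma adjusted p = 4.3e-41). RAD stood at 4.00, 3.56, 3.6 and 3.45 at 16 h and 5.43, 5.53, 5.62 and 5.04 at 31 h. In RAD the larger step came next, to 9.44, 8.86, 8.86 and 8.66 at 38 h with an intact endosperm (log2 difference 3.55, SE 0.17, adjusted p = 3.7e-34). In COT it was 3.77, 3.72, 3.90 and 3.89 at 16 h and 3.81, 3.42, 3.78 and 3.54 at 31 h, which overlap.

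AFP3 went against the general order of the parts. It was at 4.20, 3.74, 4.13 and 4.1 in MCE at 16 h and at 5.81, 5.37, 5.63 and 5.58 at 31 h. RAD arrays gave 4.41, 4.56, 4.17 and 4.76 at 16 h and at 7.17, 7.58, 7.63 and 7.1 at 31 h. The rise was larger in RAD by 1.34 on the log2 scale (interaction in limma, -1.34 for MCE minus RAD, SE 0.26, adjusted p = 8.1e-06). RAP2.6 differed in its fall: it went from 6.10, 5.46, 5.34 and 6.31 at 3 h to 2.85, 2.68, 3.13 and 2.77 at 16 h in RAD, but in MCE was at 5.85, 6.15, 5.93 and 6.10 at 3 h and at 7.98, 7.65, 6.11 and 6.09 at 16 h. In MCE the groups overlapped and the 16 h arrays spread widely. The interaction was 3.90 (SE 0.45, adjusted p = 5.6e-12).

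The light and chloroplast group held 7 genes. LHCB5 and LHCB4.1 are minor antenna proteins of photosystem II, ELIP1 and SEP2 are stress-induced relatives of the antenna, PSBP-1 belongs to the oxygen-evolving complex, SPS2 makes the side chain of plastoquinone and PTAC5 is a protein of plastid chromosomes. The fall from 3 to 16 h was called for 3 of the 7 in PE, 3 in COT, 5 in MCE and 6 in RAD. From 16 to 31 h all 7 rose in COT (between 1.1 and 4.01 on the log2 scale), 6 rose in MCE and 4 in RAD. Of the 13 measured genes of the photosynthesis list, which include ELIP1 and LHCB4.1, 12 rose in MCE, 8 in COT and 3 in RAD, and none fell.

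ELIP1 stood at 6.77, 6.62, 6.86 and 6.75 in COT at 16 h and at 10.52, 11.30, 10.44 and 10.78 at 31 h, the largest rise of the 150 genes there (log2 difference 4.01, SE 0.28, limma adjusted p = 4.6e-23). In MCE it went from 5.65, 5.79, 4.89 and 5.15 to 12.19, 11.90, 11.46 and 11.23, and in RAD from 5.15, 5.30, 4.94 and 5.67 to 9.57, 10.54, 9.72 and 9.66. All 3 parts rose without overlap. LHCB5 was at 4.58, 4.41, 4.76 and 4.39 in MCE at 16 h and at 9.02, 9.62, 8.64 and 8.05 at 31 h. In COT it was at 4.26, 4.14, 4.04 and 4.29 at 16 h and at 6.4, 7.18, 6.81 and 6.52 at 31 h. In RAD it was at 3.78, 4.48, 4.41 and 4.54 at 16 h and at 4.81, 4.82, 4.70 and 4.49 at 31 h, which overlap. LHCB5 thus rose more in MCE than in RAD by 3.89 (SE 0.31, adjusted p = 3.3e-20) and more in COT than in RAD by 2.14 (SE 0.31, adjusted p = 1.3e-08). Its mean in MCE at 31 h, 8.83, was above that in COT, 6.73. The 2 measured cotyledon markers averaged 5.75 in MCE at 31 h (arrays 5.58 to 6.02) and 10.2 in COT, against 5.03 in MCE at 16 h, and their part in the rise was not tested.

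The group of detoxification and phenolic metabolism held 9 genes. GSTU9 and GSTU5 are glutathione transferases, CYP81D8 is a cytochrome P450, UGT74E2 and UGT78D2 transfer glucose, F3H makes dihydroflavonols, NSP5 acts on glucosinolate products, and DJ1A and MSRB6 are linked to oxidative stress. From 3 to 16 h, 8 fell in PE, 6 in COT, 7 in MCE and all 9 in RAD. From 16 to 31 h, 8 rose in MCE, 6 in RAD and 1 in COT. In COT MSRB6 rose (log2 difference 2.55) and UGT74E2 fell from 8.61, 8.71, 8.68 and 9.09 to 6.96, 6.96, 6.99 and 7.1 (log2 difference -1.77, SE 0.17, limma adjusted p = 4.8e-16).

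GSTU9 had the largest interaction of all 150 genes over this time. It was at 3.83, 4.37, 4.39 and 4.27 in MCE at 16 h and at 10.36, 10.41, 10.30 and 10.29 at 31 h. Its RAD levels were 3.64, 3.69, 4.00 and 3.77 at 16 h and at 4.25, 5.56, 4.70 and 4.45 at 31 h. The rise was 6.13 (SE 0.18) in MCE and 0.96 (SE 0.18) in RAD, and the interaction was 5.17 (SE 0.26, adjusted p = 3.0e-32). In the RAD arrays the value for GSTU9 lay just under the fold minimum, and it passed 1 without the first or the fourth array at 31 h (1.13 and 1.06), without the third at 16 h (1.04) and with an added scaling of the arrays (1.01).

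F3H fell in RAD and was not called in MCE. In RAD it was at 9.39, 9.49, 9.63 and 9.60 at 3 h and at 6.39, 5.69, 6.20 and 5.8 at 16 h. In MCE it was at 9.86, 9.99, 9.84 and 10.14 at 3 h and at 10.29, 10.09, 9.52 and 9.39 at 16 h, which overlap (log2 difference -0.14). The interaction of the fall was 3.37 (SE 0.20, adjusted p = 6.5e-27). CYP81D8 went the other way, with a log2 difference of -4.40 in MCE and -1.56 in RAD (interaction -2.84, SE 0.37, adjusted p = 3.4e-10). Of the 8 measured genes of flavonoid synthesis, F3H among them, 6 rose in MCE from 16 to 31 h, 3 in RAD and 4 in COT, and of the 9 measured genes of the detoxification list, with CYP81D8 and UGT74E2, 8 rose in MCE, 4 in RAD and none in COT, where 3 fell.

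The defence and hormone signalling group held 10 genes, among them the kinases MPK3, CPK30, CIPK2 and PBL1, the salicylic acid synthesis gene EDS16, the lipoxygenase gene LOX1, the receptor gene PSKR1, the calmodulin-like gene CAM9 and the jasmonate repressors JAZ10 and JAZ12. All 10 fell from 3 to 16 h in COT, and 9 fell in each of PE, MCE and RAD. In the next interval, to 31 h, 7 rose in MCE, 2 in RAD and 3 in COT. LOX1 rose furthest, from 5.48, 5.67, 5.72 and 5.52 to 11.57, 11.97, 11.07 and 10.48 in MCE. In RAD it went from 6.07, 5.77, 5.6 and 5.79 to 7.77, 8.35, 7.61 and 7.53, also without overlap but by less (interaction 3.67, SE 0.28, limma adjusted p = 1.6e-20). MPK3 passed the fold minimum narrowly in MCE, with 1.00, and did not without any 1 of several arrays (0.84 to 0.97) or without the arrays with differing labels (0.97).

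The transcription factors linked to light, the clock or growth were GBF1 and GBF2, which bind G-boxes of light-regulated promoters, RVE2, the CONSTANS-like COL4 and the growth-regulating factor GRF7. All 5 fell in PE and RAD and 4 in COT and MCE from 3 to 16 h. By 31 h, 4 rose in COT, 3 in MCE and 1 in RAD. GRF7 went from 4.40, 4.82, 4.59 and 4.53 to 6.65, 7.31, 6.99 and 6.84 in COT (log2 difference 2.36, SE 0.17), while in MCE its log2 difference was -0.18 (limma adjusted p = 0.42). The rise was larger in COT than in RAD by 1.61 (SE 0.24, adjusted p = 3.8e-08). None of the 14 measured genes of the circadian clock list was among the 150, which is near the background with 150 of 21313 loci chosen.

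The chromatin and division genes were HTA13, a histone H2A, and AUR2, an Aurora kinase. HTA13 fell from 8.69, 8.80, 8.94 and 8.61 at 3 h to 6.10, 5.74, 5.77 and 5.97 at 16 h in MCE. In RAD it was at 8.92, 8.34, 8.46 and 8.88 at 3 h and at 8.68, 8.17, 7.92 and 8.33 at 16 h, then at 10.42, 10.39, 10.31 and 10.31 at 31 h. In COT it went from 11.13, 11.08, 11.05 and 11.12 to 8.15, 8.19, 8.12 and 8.21 and then to 9.37, 9.32, 9.35 and 9.22. The fall to 16 h was larger in MCE than in RAD (interaction -2.49, SE 0.19, limma adjusted p = 3.7e-20). By 16 h the RAD arrays overlapped those of 3 h, while all MCE arrays lay below theirs, unlike the median of the 150 genes, which was lower in RAD.

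Membrane traffic was represented by SNF7.1 and VPS20.1 of the complex that sorts cargo into vesicles at the late endosome, EXO70A1 of the exocyst, the cytokinesis gene KEU and the small GTPase gene RAB1C. All 5 fell in COT and 4 in each of the other parts from 3 to 16 h. From 16 to 31 h, 3 rose in MCE, 1 in RAD and none in COT. RAB1C differed by 1.51 in MCE, 1.2 in RAD and -0.14 in COT on the log2 scale. Central and cell wall metabolism held 9 genes, of which 8 fell in PE, all 9 in COT, 7 in MCE and 7 in RAD. Over 16 to 31 h, 6 rose in MCE, 3 in RAD and 3 in COT, with GALS1 at 3.37, 1.08 and 2.52 in this order.

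At 25 h seeds with a ruptured testa were compared with intact seeds of the same age. In the intact group of MCE, replicate 1 was redone for quality control and stood apart, with a median of the 150 genes of 6.69. Replicate 2 of this group has a source name that differs from its title. The share without replicate 1 is given below. In MCE 26 of the 150 genes were higher after rupture (17.3%, against 2.83% of all loci) and none was called lower (0.540% of all loci), where 6 genes had an unadjusted p under 0.05 in limma. In RAD 5 were higher (3.33%, against 1.44%) and 1 was lower, AT5G60680 (0.667%, against 0.577%, near the background). The difference between the parts was called for 17 genes, all higher in MCE (11.3%, against 1.53%), and for none in the other direction (0.633% of all loci), where 4 genes had an unadjusted p under 0.05. Of the other loci that fell as much by 12 h but returned less in MCE or RAD, 1.2% were higher after rupture in MCE. The choice asks for a rise from 12 h to the last stage in both parts, and 25 h lies between them. More higher than lower calls among the 150 genes are thus in part what the choice asks for.

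GSTU9 had the largest difference at testa rupture in MCE. Its levels were 4.12, 4.61, 3.79 and 4.45 in intact seeds and 8.31, 8.55, 7.80 and 7.88 after rupture (log2 difference 3.89, SE 0.18, limma adjusted p = 6.1e-34). In RAD they were 4.07, 4.31, 3.80 and 3.62 against 4.07, 3.97, 3.89 and 4.05, which overlap (log2 difference 0.04). UGT74E2 went from 6.13, 6.57, 6.51 and 6.54 to 9.22, 9.33, 8.78 and 9.04 in MCE, again without overlap. CYP81D8 was higher by 2.61, GSTU5 by 1.52 and PCAP1, a membrane protein that binds cations and microtubules, by 2.34. In all, 5 of the 9 detoxification genes were called higher in MCE (against 17.3% of the 150 genes and 2.83% of all loci). This group was picked after the values were seen, so the count tests nothing about the role. In RAD ELIP1 went from 5.75, 5.40, 5.21 and 5.67 to 7.49, 7.91, 6.99 and 7.78 (log2 difference 2.03, SE 0.28, adjusted p = 1.7e-08). FAH1, a fatty acid hydroxylase, was higher in both parts, by 1.82 in MCE and 1.34 in RAD.

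Between 31 h and 38 h with an intact endosperm, RAD rose more than MCE. In RAD 49 genes rose (32.7%, against 3.87% of all loci) and none was called lower (3.16% of all loci), where 1 gene had an unadjusted p under 0.05 in limma. In MCE 27 rose (18%, against 3.67%) and 2 fell (1.33%, against 2.14%), AT1G06000 and F3H. The MCE count rests in part on 1 array: without replicate 4 at 31 h, which was also 1 of the arrays redone for quality control, 12.0% rose. The change in RAD was above that in MCE for 35 genes (23.3%, against 5.87%) and below it for 5 (3.33%, against 5.82%). The median log2 difference was 0.75 in RAD and 0.39 in MCE. MCE and RAD at the next stage, 38 h with a ruptured endosperm, took part in the choice. More rises than falls up to that stage are thus in part what the choice asks for.

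Several genes that rose over this time in RAD had been called higher in MCE by 31 h. UGT74E2 in RAD was at 5.56, 6.28, 5.82 and 5.31 at 31 h and at 9.36, 8.45, 8.98 and 9.18 at 38 h (log2 difference 3.25, SE 0.17, limma adjusted p = 2.4e-31). GSTU9 went from 4.25, 5.56, 4.70 and 4.45 to 8.30, 7.62, 7.92 and 8.11 in RAD (log2 difference 3.24), whereas in MCE the log2 difference was 0.39. The 38 h arrays lay above all 31 h arrays for both genes. SEN1 reached 10.19, 10.38, 9.83 and 10.16 in RAD, ADH1 rose by 1.98, ECT8 by 2.88 and ATG8E by 1.61. F3H fell in MCE, from 12.34, 12.37, 12.32 and 12.35 to 10.74, 10.80, 10.72 and 11.04, while it went from 8.84, 9.26, 9.32 and 8.86 to 10.35, 10.51, 10.43 and 10.29 in RAD, so the parts moved in opposite directions (interaction -2.85, SE 0.20, adjusted p = 7.6e-22). Among the genes that rose in MCE were LHCB5 (1.58), PCAP1 (1.57) and LOX1 (1.56).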

How the data were processed

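The authors deposited log2 levels, with a column per array and a line per locus, made with RMA and the package affy, per the submitters' processing notes. RMA corrects background, brings all arrays to a common distribution and combines a locus's probes, so levels are relative. RNA was labelled from 100 ng per sample, per the labels' protocols. No source used here gives the assignment of probes to loci or the genome build. Positions are therefore left out, and promoter and protein sequences were not analysed here. Symbols came from the RefSeq table of the organism (assembly TAIR10.1), in which 21205 loci were found. Of the 150 genes 149 were found there and 93 had a symbol.

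Arrays were grouped by title. The labels describe 6 arrays as redone for quality control and give 3 a source name that differs from the title. The latter are replicate 2 of MCE at 16 h, at 20 h and at 25 h with an intact testa. All were kept, and fits without them are among the alternatives. Nothing in the labels says whether replicates came from separate seed lots, so p-values rest on a spread between arrays that may be technical. The reported fit did not pair arrays by replicate number.

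In R 4.3.3 with limma 3.58.1, a mean per group was fitted over all 111 arrays, with 83 residual degrees of freedom, a prior worth 8.02 and a typical moderated SD of 0.193; the number of arrays limits the precision. Calls needed a Benjamini-Hochberg adjusted p under 0.05 over all loci of a comparison and a log2 difference of at least 1, two-sided. Of the 16 comparisons 4 were added after the members were seen: the later step from 31 h to 38 h in each part, its interaction and the interaction at testa rupture. The procedure was tested on simulated data. The members, gene lists and tests were chosen with earlier results of these data known, and the role groups after the values were seen. Genes named are the 12 highest scores, those at the edge, members of a gene list, the 3 most changed called members in each direction of a comparison where a symbol or known function allowed, and further genes of the role groups, chosen after their values were seen. Alternatives were a filter on the 25% of loci with the lowest highest group mean, repeated quantile normalization, an added scaling of each array, an intensity trend, array weights, the replicate block, no fold minimum, only the compared groups, 100 or 200 genes, and fits without single arrays.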

Additional observations from a re-analysis of the deposited data

Results flagged for a closer look

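Among 4 replicates, 1 array stood apart from the others in 4 of the 119 groups checked, where chance alone gives about 1 in 20. In MCE at 25 h with an intact testa, replicate 1 had a median of the 150 genes of 6.69, and the group averaged 7.00. This array is 1 of those redone for quality control, and without it 13.3% of the genes were higher at testa rupture in MCE instead of 17.3%. The same array gave 6.13 for UGT74E2 and the others 6.51 to 6.57. In RAD at 31 h, replicate 2 gave 10.54 for ELIP1 and the others 9.57 to 9.72. In MCE at 38 h with a ruptured endosperm, replicate 4 gave 9.64 for SEN1 and the others 10.03 to 10.08.

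The effect of time differed between seed parts by the interaction test in limma. From 3 to 16 h the change in MCE was above that in RAD for 37 genes (24.7%, against 6.81% of all loci). It was below for 13 (8.67%, against 6.99%), which is near the background. Above were RAP2.6 with a difference of 3.90 on the log2 scale, F3H with 3.37 and GSTU5 with 2.91, and below were CYP81D8 with -2.84, HTA13 with -2.49 and GSTU9 with -2.30. From 16 to 31 h the change in MCE was above that in RAD for 58 genes (38.7%, against 8.88% of all loci) and below it for 4 (2.67%, against 10.2%). Above were GSTU9 with 5.17, ECT8 with 4.23, PSBP-1 with 4.03, PCAP1 with 4.02, LHCB5 with 3.89, LOX1 with 3.67, UGT74E2 with 3.28 and ATG8H with 2.28, and below were AFP3 with -1.34 and NSP5 with -1.29.

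Over the same interval the change in COT was above that in RAD for 9 genes (6.0%, against 4.53% of all loci), which is near the background. It was below for 31 (20.7%, against 4.33%). Above were LHCB5 with 2.14, MSRB6 with 1.72, GRF7 with 1.61 and GALS1 with 1.44. Below were DJ1A with -2.76, NSP5 with -2.76, BGAL3 with -2.57 and RCI2A with -2.52. At testa rupture the difference in MCE was above that in RAD for 17 genes (11.3%, against 1.53% of all loci). Among them were GSTU9 with 3.85, UGT74E2 with 3.50, PCAP1 with 2.13, RVE2 with 1.89 and CYP81D8 with 1.79. From 31 h to 38 h with an intact endosperm the change in MCE was above that in RAD for 5 genes, among them PCAP1 with 1.22. This was 3.33%, against 5.82% of all loci. The change was below that in RAD for 35 genes (23.3%, against 5.87%), among them UGT74E2 with -3.53, COR413-PM1 with -3.15, GSTU9 with -2.85 and F3H with -2.85.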

How the results depend on the processing

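Without a fold minimum, 51.3% of the genes were called higher at 31 h than at 16 h in COT and 77.3% in RAD, 43.3% at testa rupture in MCE and 17.3% in RAD, and 47.3% in MCE and 77.3% in RAD at 38 h with an intact endosperm against 31 h. For the interactions this gave 38.0% above RAD in MCE from 3 to 16 h, 37.3% below RAD in COT from 16 to 31 h and 45.3% below RAD in MCE from 31 to 38 h. Under the other alternatives the shares of called genes in their main direction stayed within 1.5 times the reported ones. When single arrays were left out, the share that fell from 3 to 16 h was 81.3% to 84.7% in PE, 84.0% to 85.3% in COT, 76.0% to 80.7% in MCE and 84.0% to 91.3% in RAD. The share that rose from 16 to 31 h was 74.7% to 81.3% in MCE, 39.3% to 45.3% in RAD and 25.3% to 28% in COT. From 31 to 38 h it was 12.0% to 23.3% in MCE, the lowest without replicate 4 at 31 h, and 30.7% to 35.3% in RAD. At testa rupture it was 13.3% to 20.0% in MCE and 2.67% to 4.67% in RAD. The interactions gave 22.7% to 25.3% for the fall, 34.7% to 40.0% for the rise in MCE against RAD, 19.3% to 23.3% for COT below RAD, 8.0% to 12.7% at testa rupture and 20.0% to 24.7% for the last step.

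Of the 150 genes, 138 to 149 were chosen again without 1 array, 133 after repeated quantile normalization, 140 with medians in place of means, 142 with added scaling, whose shifts ran from -0.23 to 0.16, and 146 without the redone arrays. Same-numbered arrays were not paired in the reported fit. Correlations of their deviations ran from -0.20 to 0.35 over 115 distinct pairs. In the interaction of COT and RAD from 16 to 31 h, 15 of 24 pairs were over 0.1. Whether replicate numbers share an effect was not tested. With the replicate block 82.7% fell in PE and 27.3% rose in COT. Calls near the fold minimum changed for single genes. RCI2A at testa rupture in MCE missed it with array weights (0.91) and without the redone arrays (0.82), and ABCI21 at testa rupture in RAD missed it without any 1 of 5 arrays (0.94 to 1.00). The number of arrays limits what can be called near that threshold, and levels near the low end of the scale understate differences. The promoter search that had been planned was not run.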
